A study of Mus musculus with 6 samples.

Results

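The genes described here are 10 products of Sertoli cells, the supporting cells that enclose the germ cells of the testis: Amh, Clu, Cst9, Defb19, Aard, Cbln4, Etd, Mro, Vnn1 and Tesc. They were taken by gene symbol from a table of 16862 genes, all 10 were found, and all 10 passed the filter on low values that left 15116 genes for testing. Gonads of male C57BL/6 mouse embryos were dissected at E13.5 (embryonic day), frozen, and profiled by RNA sequencing of total RNA. The groups were 3 wild-type (WT) libraries, numbered 1, 3 and 4, and 3 libraries, numbered 5, 7 and 8, from embryos without both prostaglandin D synthases, written L/H-Pgds-/- in the labels and KO below. According to the labels the gonads came from 6 littermates of both genotypes, and each library is treated here as the sample of 1 embryo. They do not give the deleted parts of the genes or the litter of each embryo. All values are upper-quartile normalised pseudo-counts made by the authors, which are not reads, so depth is unknown.

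Sertoli cells differentiate when the transcription factor Sox9 is switched on in the XY gonad, and they then direct the other cells by what they secrete. Their best known fetal product is anti-Müllerian hormone, encoded by Amh, a member of the TGF-beta family that makes the Müllerian ducts regress. L-Pgds, the product of Ptgds, is itself made by fetal Sertoli cells, and its product prostaglandin D2 is known to act back on these cells to sustain Sox9.

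The sequences of 5 members are shown because the results below turn on them: Clu, Defb19 and Etd, which were lower in the knockout, Cbln4, which was higher, and Amh, the defining hormone. Each line gives the first 120 coding bases of the longest protein-coding transcript in GENCODE vM21 (build GRCm38), with the start codon in capitals.
Amh: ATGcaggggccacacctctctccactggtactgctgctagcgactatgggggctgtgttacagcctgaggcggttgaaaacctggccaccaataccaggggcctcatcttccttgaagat
Clu: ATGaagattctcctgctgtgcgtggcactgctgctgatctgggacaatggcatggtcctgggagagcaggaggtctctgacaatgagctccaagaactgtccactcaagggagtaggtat
Defb19: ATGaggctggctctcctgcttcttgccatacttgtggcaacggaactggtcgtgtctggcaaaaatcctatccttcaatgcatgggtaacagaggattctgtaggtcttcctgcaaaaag
Etd: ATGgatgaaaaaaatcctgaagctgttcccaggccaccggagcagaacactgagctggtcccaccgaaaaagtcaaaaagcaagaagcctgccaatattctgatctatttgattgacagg
Cbln4: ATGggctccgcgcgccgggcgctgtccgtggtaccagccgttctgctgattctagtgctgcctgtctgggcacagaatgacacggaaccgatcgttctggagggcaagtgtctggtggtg
The coding part is 1665 bases long in Amh, 1347 in Clu, 597 in Cbln4, 252 in Defb19 and 180 in Etd. Its GC content is 65.4% in Amh, 54.5% in Clu, 49.9% in Cbln4, 49.2% in Defb19 and 44.4% in Etd. Length and base composition matter here because changes across all genes in this comparison followed both, as described further on. There both are taken over the whole transcript, not the coding part. The whole transcript measures 1670 nt in Amh, 1810 in Clu, 2902 in Cbln4, 394 in Defb19 and 478 in Etd.

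Of these 5 genes, Etd and Cbln4 have an entry in the RefSeq promoter table (GRCm38.p6), which holds 250 bases before and 50 bases after the start of a gene. Cst9 and Tesc also have one, and Amh, Clu, Defb19, Aard, Mro and Vnn1 do not. The windows of Etd (chrX:53434668-53434967, plus strand) and Cbln4 (chr2:172043417-172043716, minus strand) are printed as the called members that went opposite ways, with matches to the motifs searched in capitals.
Etd: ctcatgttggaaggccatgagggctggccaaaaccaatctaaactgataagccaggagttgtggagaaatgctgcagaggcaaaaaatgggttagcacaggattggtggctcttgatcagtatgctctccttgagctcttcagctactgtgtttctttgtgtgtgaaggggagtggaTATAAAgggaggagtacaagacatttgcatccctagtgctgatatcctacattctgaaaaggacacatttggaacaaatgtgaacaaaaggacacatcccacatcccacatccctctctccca
Cbln4: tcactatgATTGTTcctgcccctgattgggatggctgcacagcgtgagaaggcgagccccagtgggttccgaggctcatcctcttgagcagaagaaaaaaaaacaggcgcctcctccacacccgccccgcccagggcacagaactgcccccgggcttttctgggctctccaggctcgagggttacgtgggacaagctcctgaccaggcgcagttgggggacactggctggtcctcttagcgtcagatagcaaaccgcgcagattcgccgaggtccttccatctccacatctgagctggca
Both strands were searched for 4 motifs, and each window held 1 match, so no matches overlapped. The TATA box was searched as TATAAA, which Etd held at base -73 and which 13.6% of 32851 promoters of this length hold. The motif of SOX factors was searched as AACAAT, present in 10.7% of promoters, and Cbln4 held its reverse complement at base -242. The motif of SF-1, searched as AAGGTCA, is in 4.72% of promoters and was in neither window. The motif of GATA factors, searched as AGATAA, is in 11.2% of promoters and was in neither window.

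Both targeted genes were checked first. Ptgds held 6560, 8137 and 8712 in wild type and 15.2, 4.0 and 2.94 in knockout. Hpgds, which encodes H-Pgds, held 45.0, 47.5 and 55.0 in wild type and 87.8, 87.3 and 104 in knockout, so the value over this gene does not check the deletion. The presence of Sertoli cell markers in these whole gonads was checked with Sox9, Sox8, Dhh, Wt1 and Gata4. All 5 were well above the filter in every library, with sums of 17097 to 23160 in wild type and 21324 to 23111 in knockout. Markers of other cells were counted by the limma test described below, which called 34.3% of all genes tested, 17.0% as lower and 17.3% as higher. Of 5 smooth muscle genes, 3 fell (Acta2, Des and Actg2), with sums of 9514 to 21286 in wild type and 6811 to 7690 in knockout. With the length and GC trend described below removed, Des stayed past the threshold (limma adjusted p = 0.049), while Acta2 and Actg2 did not. Of 5 macrophage genes, 2 fell (Csf1r and C1qa), both also with the length and GC trend described below removed, and their sums of 1293 to 1808 in wild type and 899 to 1063 in knockout did not overlap. Of 5 endothelial genes, Kdr rose, also with that trend removed, with sums of 5672 to 8102 and 7418 to 8453. Of 5 erythroid and 4 mesonephric genes none was called by limma, and 1 gene of each list was lower at an unadjusted p under 0.05. The germ cell list had 1 of 8 genes higher (Ddx4, whose groups overlapped) and sums of 19988 to 32113 and 21300 to 36724. Its median log2 change was -0.26, and 2 of its genes (Pou5f1 and Dnd1) were lower at an unadjusted limma p under 0.05. The fetal Leydig cell list had 1 of 5 lower and sums of 65156 to 107076 and 48764 to 69394. No gene of the germ cell and Leydig lists was called with the trend removed. The granulosa cell and ovary list had 2 of 6 lower (Wnt4 and Rspo1). With the trend removed, Wnt4 kept its call (limma adjusted p = 0.00358) and Rspo1 did not. The sums of this list, 4816 to 5440 in wild type and 3143 to 3368 in knockout, did not overlap. Wnt4 and Rspo1 made up most of these sums, and the other 4 genes of the list overlapped. Of all genes tested, taken singly, 50.3% did not overlap between the genotypes, which bears on the macrophage sums as well. Foxl2, the defining gene of the granulosa cell and ovary list, lay between 12.3 and 29.9 in all libraries, and no marker was at 0 in any list. Wild-type library 1 stood apart in several lists, with a Leydig sum of 107076 against 65156 and 69867 in the other wild-type libraries, a smooth muscle sum of 21286 against 9514 and 11574, and an erythroid sum of 37366 against 96799 and 140611. Knockout library 7 had a germ cell sum of 36724, against 23367 and 21300 in the other knockout libraries. Wild-type library 1, at 32113, was the highest of its group for this sum. In bulk RNA of gonads, fewer cells of a type and less RNA per cell cannot be told apart, and the part of cell composition in the results below was not tested.

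Knockout and wild type were compared by limma's moderated test on log2(value + 1) over all 15116 genes, with Benjamini-Hochberg adjusted p-values and a threshold of 0.05. By this rule 3 of the 10 Sertoli products fell (Clu, Defb19 and Etd), 1 rose (Cbln4) and 6 did not pass. Across all genes tested 34.3% were called, 17.0% as lower and 17.3% as higher. The share of members called as lower was thus above the share of all genes, but 10 genes are few and no test was made of this. The median log2 change of the members was -0.34, against -0.03 for all genes tested. For 5 members the wild-type and knockout values did not overlap, 4 of them with knockout below wild type and 1 with knockout above. Non-overlap was seen for 50.3% of all genes, 25.6% with knockout below and 24.7% with knockout above. With 3 libraries per genotype, the smallest p of an exact permutation test on 1 gene is 0.1. With 1 library left out, 6 members were called without wild-type library 1 (background 29.8%), 4 without wild-type library 3 (33.3%) and 2 without wild-type library 4 (20.1%). Leaving out a knockout library gave 2 members for library 5 (24.1%), 5 for library 7 (28.1%) and 4 for library 8 (29.8%).

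**Figure D1:**
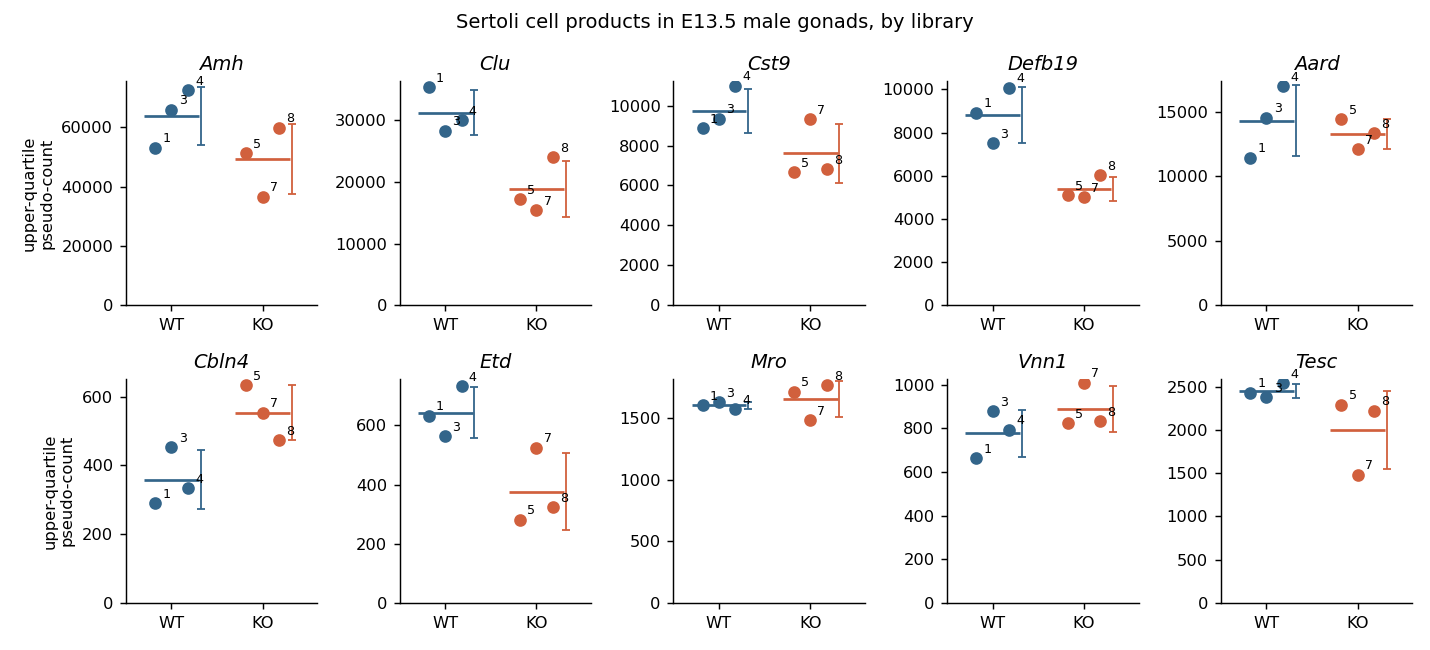
Upper-quartile pseudo-counts (linear axes from 0) of the 10 Sertoli cell products in each library, with library numbers beside the points, the group mean as a line and its SD as a bar. Clu, Defb19, Etd and Tesc lie lower in all 3 KO libraries than in any WT library, Cbln4 lies higher, and the other 5 genes overlap.

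Amh, the hormone itself, was the most abundant member. Wild-type libraries 1, 3 and 4 held 53137, 65907 and 72634, and knockout libraries 5, 7 and 8 held 51273, 36643 and 59874. The groups overlapped, since knockout library 8 lay above wild-type library 1, and knockout library 7 was the lowest of all. The log2 change was -0.39 (SE 0.19, limma adjusted p = 0.131), and its direction depended on the processing: it was 0.11 with the length and GC trend removed, and -0.03 when wild-type library 1 was dropped as well. Library 7 decided much of this value, as without it the log2 change was -0.19 (adjusted p = 0.383). Without wild-type library 1 Amh passed (log2 -0.52, adjusted p = 0.0496). Amh (NCBI gene 11705) spans 80267993 to 80270393 on chromosome 10 in mm9 and lies 325 bases after the end of Sf3a2.

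Clu encodes clusterin, a secreted chaperone that is a major protein of Sertoli cell fluid. It held 35345, 28309 and 30031 in wild type and 17196, 15463 and 24027 in knockout. All knockout libraries were lower than all wild-type libraries, with knockout library 8 closest to them. Clu fell from a mean of 31228 ± 3668 to 18896 ± 4528 (SD, n = 3 each), which is -0.74 on the log2 scale (limma SE 0.16, adjusted p = 0.00678). With any 1 library left out it stayed past the threshold, with log2 changes from -0.93 to -0.61. Removal of the length and GC trend ended the call. The ratio of Clu to Amh within a library was 0.665, 0.43 and 0.414 in wild type and 0.335, 0.422 and 0.401 in knockout, so the ratios of both genotypes overlapped. Clu (NCBI gene 12759) spans 66587320 to 66600382 on chromosome 14 in mm9.

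Defb19 encodes a secreted beta-defensin, a small cysteine-rich peptide, that is enriched in Sertoli cells of the fetal testis. Its values were 8914, 7498 and 10080 in wild type and 5108, 5001 and 6027 in knockout. The groups stood clear of each other, and the knockout libraries were close together. Defb19 fell from 8831 ± 1293 to 5379 ± 564 (SD, n = 3 each), or -0.71 in log2 terms (limma SE 0.12, adjusted p = 0.00265). It stayed past the threshold with any 1 library left out, at -0.82 to -0.61. Removal of the length and GC trend ended the call and brought the log2 change close to 0 (-0.09, adjusted p = 0.714). Defb19 (NCBI gene 246700) spans 152401822 to 152406048 on chromosome 2 in mm9, and its annotated transcript of 394 nt is the shortest of the 10.

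Etd, named for embryonic testis differentiation, held 633, 564 and 734 in wild type and 282, 525 and 323 in knockout. The groups did not overlap, but knockout library 7 reached close to wild-type library 3. Etd fell from 644 ± 85.1 to 377 ± 130 (SD, n = 3 each), with log2 -0.82 (limma SE 0.21, adjusted p = 0.0138). The call ended without wild-type library 4 (log2 -0.72, adjusted p = 0.0622) and without knockout library 5 (log2 -0.64, adjusted p = 0.0568). Etd (NCBI gene 69501) spans 50788095 to 50796753 on the X chromosome in mm9.

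Cbln4 encodes a secreted protein of the cerebellin family and was the member that rose. It held 289, 453 and 333 in wild type and 634, 553 and 473 in knockout. Every knockout library was above every wild-type library, though wild-type library 3 and knockout library 8 lay close together. The mean went from 358 ± 85.0 to 553 ± 80.5 (SD, n = 3 each), with log2 0.64 (limma SE 0.18, adjusted p = 0.0186). The call ended without wild-type library 4 (log2 0.60, adjusted p = 0.0688) and without knockout library 5 (log2 0.54, adjusted p = 0.0827). Cbln4 (NCBI gene 228942) spans 171861836 to 171868966 on chromosome 2 in mm9.

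The other 5 members did not pass the test. Cst9, which encodes testatin, a secreted protein of the cystatin family, held 8859, 9339 and 10985 in wild type and 6673, 9327 and 6802 in knockout. Knockout library 7 alone lay among the wild-type values, and the log2 change was -0.37 (SE 0.14, adjusted p = 0.0627). Cst9 passed without that library (log2 -0.52, adjusted p = 0.00851) and without wild-type library 1 (log2 -0.43, adjusted p = 0.0402). Tesc, which encodes the calcium-binding protein tescalcin, held 2435, 2381 and 2541 in wild type and 2293, 1482 and 2225 in knockout. All knockout libraries were lower, but libraries 5 and 8 were only slightly so, and without library 7 the log2 change went from -0.32 (SE 0.15, adjusted p = 0.12) to -0.12 (adjusted p = 0.278). With the length and GC trend removed, it was 0.31.

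Aard, a gene with an alanine- and arginine-rich domain, held 11444, 14565 and 16999 in wild type and 14437, 12112 and 13365 in knockout, with all knockout libraries inside the wild-type range. Its log2 change of -0.09 (SE 0.14, adjusted p = 0.634) turned positive with equal totals, with quantile normalisation, with the trend removed and without wild-type library 4. Mro, which encodes the HEAT-repeat protein maestro, held 1605, 1626 and 1572 in wild type and 1712, 1484 and 1764 in knockout. It had the narrowest wild-type spread of the members, with a coefficient of variation of 1.70%, and its log2 change was 0.04 (SE 0.09, adjusted p = 0.745). It was -0.10 with libraries scaled to the Sertoli markers (0.03 when wild-type library 1 was dropped as well) and -0.01 without knockout library 8. Vnn1 encodes vanin-1, a pantetheinase anchored to the cell surface, and held 664, 877 and 794 in wild type and 825, 1010 and 833 in knockout. The groups overlapped, with a log2 change of 0.19 (SE 0.13, adjusted p = 0.266).

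The 10 members did not move together among the libraries. Knockout library 7 was the lowest of all 6 libraries for Amh, Clu, Defb19, Mro and Tesc, and the highest for Vnn1. Wild-type library 4 was the highest for Amh, Cst9, Defb19, Aard, Etd and Tesc. Wild-type library 1 was the highest for Clu and the lowest for Aard, Cbln4 and Vnn1. Within knockout, the coefficient of variation ran from 8.75% for Aard to 34.6% for Etd.

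**Figure D2:**
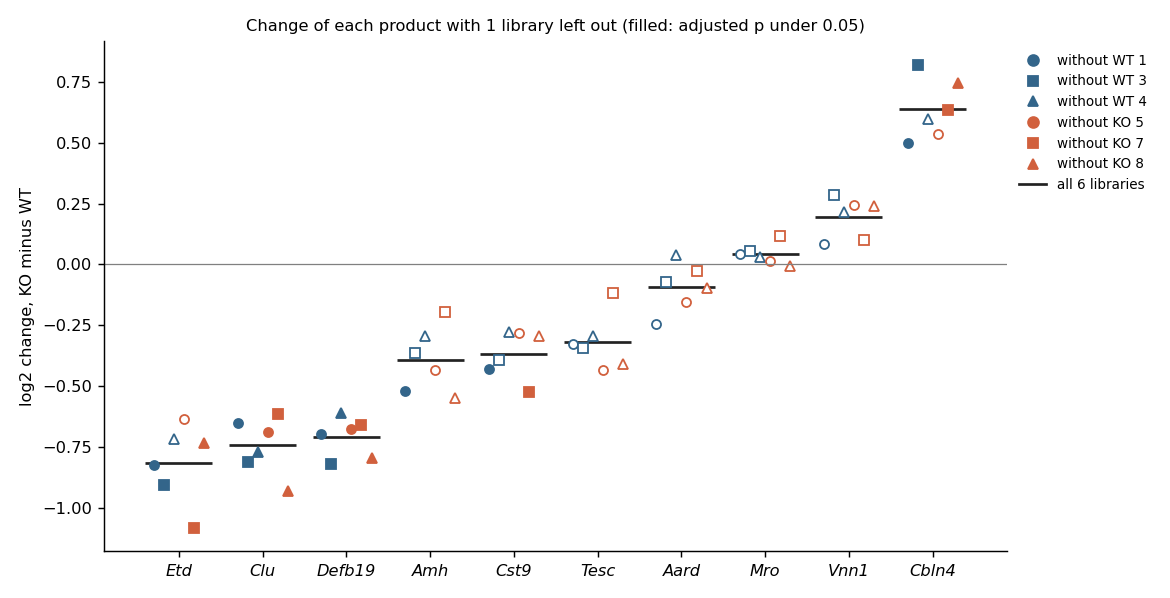
Log2 change (KO minus WT) of each product with all 6 libraries (line) and with 1 library left out (points, filled where the adjusted p is under 0.05). Clu and Defb19 keep their calls in all 6 cases, while Etd and Cbln4 lose theirs without WT library 4 or KO library 5.

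Levels of different genes were compared per kilobase of transcript, using the longest protein-coding transcript in GENCODE vM21. In wild type the order was Amh (38259 ± 5930 per kilobase, SD, n = 3), Defb19 (22413 ± 3282), Clu (17253 ± 2026), Cst9 (14160 ± 1623), Aard (10635 ± 2066), Tesc (2378 ± 79.1), Etd (1347 ± 178), Mro (730 ± 12.4), Vnn1 (322 ± 44.6) and Cbln4 (124 ± 29.3). The ranges of Defb19 and Clu overlapped, as did those of Clu and Cst9, and all other neighbours in this order stood apart. Per kilobase, Amh ranked 11 to 20 among 15841 genes with a length in the wild-type libraries and 9 to 21 in the knockout libraries. In knockout Cst9 (11064 ± 2178) stood above Clu (10440 ± 2502), with overlapping ranges, and the order was otherwise the same. The pseudo-counts of the 10 members together made up 0.528%, 0.575% and 0.618% of all values in wild type and 0.464%, 0.385% and 0.53% in knockout.

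The changes were then set against transcript length and GC content, because both properties jointly took up 42% of the variance in log2 change over genes, which are not independent replicates. The members are short: their median transcript length was 1509 nt, against 3121 nt for all genes tested, and their median GC content was 50.1% against 50.6%. With the trend on length and GC content removed from each library, 2 of the 10 members were called, Etd as lower and Cbln4 as higher. The background then was 12.7% of 14449 genes called, 6.64% as lower and 6.07% as higher. The log2 change of Etd went from -0.82 to -0.47 (SE 0.13, adjusted p = 0.04), and that of Cbln4 from 0.64 to 0.62 (SE 0.17, adjusted p = 0.0428). Clu went from -0.74 to -0.36 (SE 0.13, adjusted p = 0.114) and Defb19 from -0.71 to -0.09 (SE 0.14, adjusted p = 0.714), so neither passed. Amh, the member with the highest GC content (65.4% of the transcript), turned from -0.39 to 0.11 (SE 0.15, adjusted p = 0.694), a sign that did not hold without wild-type library 1. Tesc, next at 60.8%, turned from -0.32 to 0.31 (SE 0.12, adjusted p = 0.127). Both had their lowest value in knockout library 7. The median of the 10 log2 changes was 0.09 after removal, against -0.01 for all genes. With wild-type library 1 dropped as well, 11.9% of genes were called and Etd was the 1 member called (log2 -0.52, adjusted p = 0.0245), and Cbln4 stood at 0.47 (adjusted p = 0.0603).

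**Figure D3:**
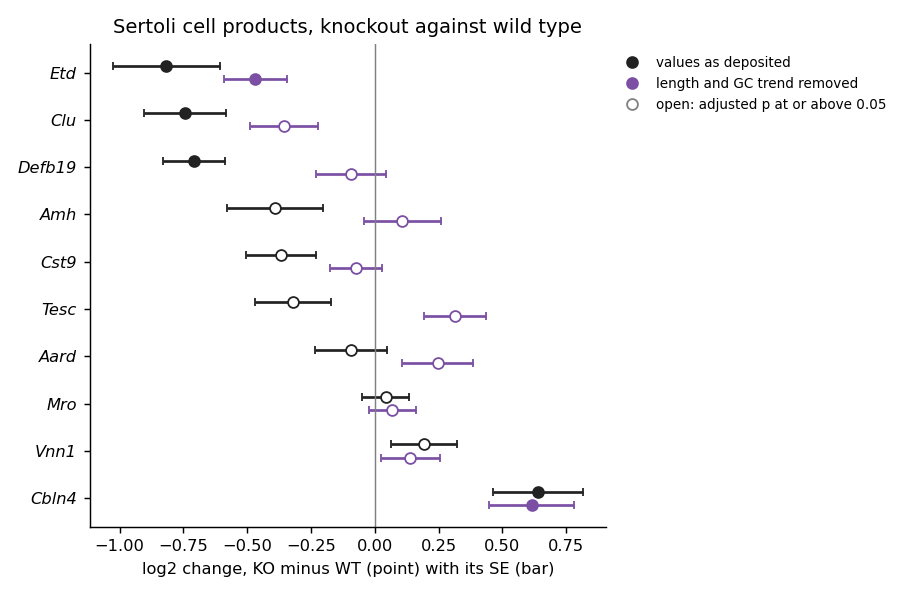
Log2 change (KO minus WT) of each product with its SE, from the values as deposited (black) and with the length and GC trend removed (purple), filled where the adjusted p is under 0.05. Cbln4 moves from 0.64 to 0.62, while Defb19 moves from -0.71 to -0.09 and Amh, Tesc and Aard change sign.

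**Figure D4:**
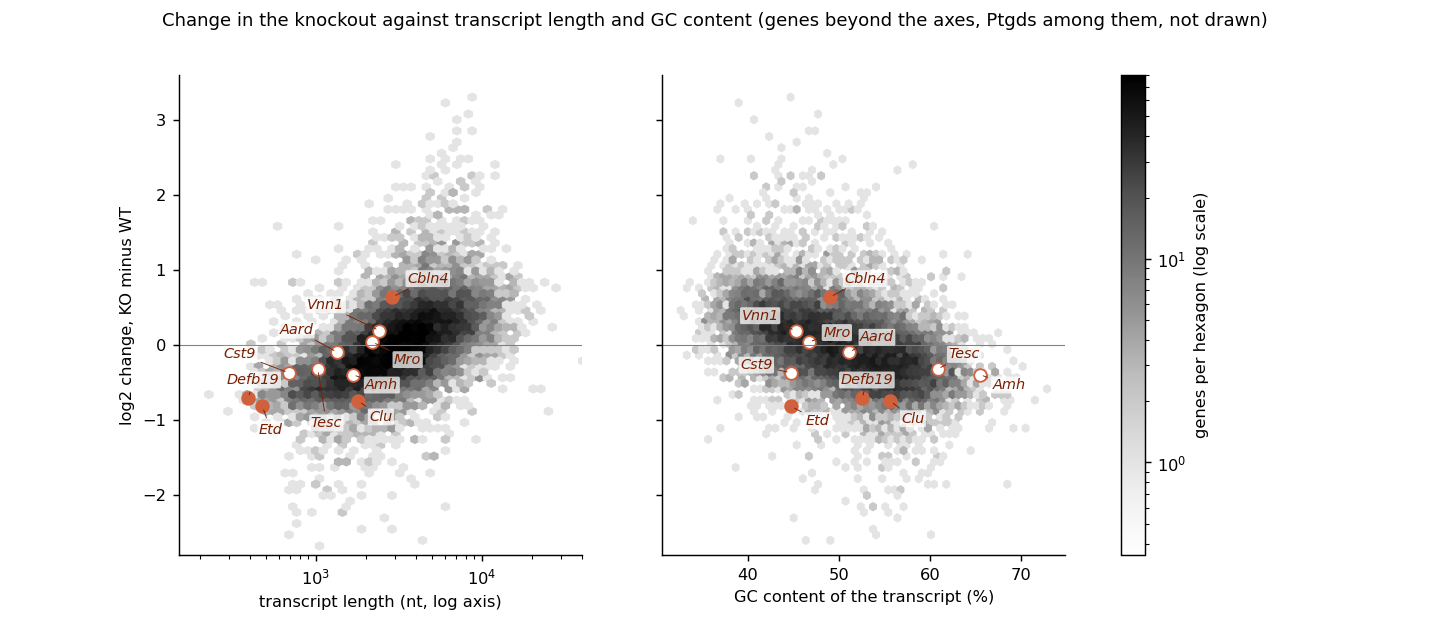
Log2 change (KO minus WT) of tested genes (grey hexagons, darker for more genes) against transcript length (left, log axis) and GC content (right), with the 10 products as circles, filled where the adjusted p is under 0.05, and genes beyond the axes left off. Etd at 478 nt and Defb19 at 394 nt sit at the short end, where most genes lie below 0, and Cbln4 at 2902 nt lies above most genes of its length.

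The members were also related to the 5 Sertoli markers Sox9, Sox8, Dhh, Wt1 and Gata4, an alternative chosen after the data were seen. The mean log2 value of these markers was 11.36 in wild-type library 1 and between 11.71 and 11.81 in the other 5 libraries. The knockout mean was 0.15 above the wild-type mean, and 0.02 above it without wild-type library 1, so this shift rested on that library. With each library scaled to that mean, Clu (log2 -0.89, adjusted p = 0.00835), Defb19 (-0.86, 0.00516) and Etd (-0.96, 0.00981) were past the threshold, and 18.6% of all genes were called. Amh stood at -0.54 (adjusted p = 0.0659), Cst9 at -0.51 (0.0519) and Cbln4 at 0.49 (0.081). With the same scaling and wild-type library 1 dropped, 26.9% of genes and 4 members were called: Clu (-0.67, adjusted p = 0.0135), Defb19 (-0.72, 0.00803), Etd (-0.84, 0.0331) and Amh (-0.54, 0.0468). Cbln4 stood at 0.48 (0.0619). The median transcript of these markers is 3400 nt long. This scaling shifts all genes of a library by the same log2 amount, so it does not remove the trend on length.

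Of 20 further Sertoli genes, 4 rose and 2 fell, with a median log2 change of -0.09, against -0.03 for all genes. The 6 called are 30% of the list, close to the 34.3% of all genes. Ptgds, the targeted gene, was 1 of the 2 that fell. Inha, the alpha subunit of inhibin, was the other, going from 13022 ± 1446 to 8169 ± 1574 (SD, n = 3 each; limma log2 -0.68, SE 0.14, adjusted p = 0.00493), and it lost its call with the trend removed (-0.16, adjusted p = 0.355). Kitl, the ligand of the Kit receptor of germ cells, rose from 1860 ± 341 to 3694 ± 370 (log2 1.00, SE 0.14, limma adjusted p = 0.00166), and kept its call after trend removal (0.44, adjusted p = 0.0297). Erbb4, a receptor of neuregulins with the longest transcript of this list, held 6.43, 3.05 and 0.57 in wild type and 16.3, 14.4 and 20.0 in knockout (log2 2.30, adjusted p = 0.0141). It passed the filter on low values only through the knockout libraries. The size of its change depended on the pseudocount, with log2 1.03 at a pseudocount of 10 and 2.53 at 0.5, and it did not pass without knockout library 8 (adjusted p = 0.0521) or with the trend removed (1.64, 0.094). Cyp26b1, which degrades retinoic acid, and Inhbb, an activin and inhibin subunit, are outside the naming rule and were picked after their values were seen. They had log2 changes of 0.60 and 0.38 (adjusted p = 0.0223 and 0.0359), and both were past the threshold with the trend removed (adjusted p = 0.0267 and 0.00872). The Inhbb groups overlapped, with knockout library 7 at 3268 and wild-type library 3 at 3335. Inhbb did not pass with any 1 of wild-type libraries 1 and 4 and knockout libraries 5 and 8 left out (adjusted p from 0.104 to 0.115), nor did Cyp26b1 in the absence of wild-type library 4 (0.0604) or knockout library 8 (0.0789). The log2 change of Cyp26b1 was 0.40 without wild-type library 1. After trend removal 3 genes of the list were higher (Kitl, Cyp26b1 and Inhbb) and 2 lower, Ptgds and Fgf9, a growth factor of the early testis that passed only then (-0.54, adjusted p = 0.0153). Together they are 25% of the list, against 12.7% of all genes with the trend removed, and no test was made of this. Fgf9, and Dmrt1, Nr0b1 and Smad5 below, are likewise named after their values were seen.

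Among transcription factors and cofactors known to act on Sertoli genes, 3 of 11 tested rose and 0 fell, and by an unadjusted p under 0.05 the counts were also 3 and 0. The 3 called are 27.3% of the list, against 34.3% of all genes. Zfpm2, the cofactor FOG2 of Gata4, rose from 862 ± 71.5 to 1275 ± 104 (SD, n = 3 each; limma log2 0.56, adjusted p = 0.00335), Wt1 from 4548 ± 657 to 6015 ± 337 (0.41, 0.0178) and Lhx9 from 2330 ± 145 to 2939 ± 42.0 (0.34, 0.0112). With the trend removed, Wt1 stayed past the threshold (0.52, adjusted p = 0.0167), Zfpm2 did not (0.11, 0.448), and Lhx9 turned to -0.12 (0.383). Dmrt1 (0.41, adjusted p = 0.0403) and Nr0b1 (0.48, 0.0368) passed only after trend removal, so that again 3 of 11 were higher (27.3%). Over all genes, 12.7% were called with the trend removed, 6.07% as higher, but 11 genes are few and no test was made of this. Leaving out wild-type library 1 ended the calls of Wt1 (0.0587) and Lhx9 (0.0507), and leaving out knockout library 5 that of Wt1 (0.0679). With libraries scaled to the Sertoli markers, Zfpm2, Wt1 and Lhx9 did not pass (adjusted p = 0.0837, 0.229 and 0.4). Wt1 is itself among the markers that set this scaling, which takes out part of its own rise, so its result there decides nothing. When wild-type library 1 was dropped as well, Zfpm2 passed (0.0197).

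The receptors and intracellular partners of AMH were measured as well. Of the 12 genes of this list, Amh included, 2 rose and 2 fell, together 33.3% of the list. Amhr2, the specific type II receptor, held 4981, 6595 and 6874 in wild type and 5020, 3627 and 5157 in knockout, and the groups overlapped (limma log2 -0.42, SE 0.16, adjusted p = 0.0593); it is named after its value was seen. Bmpr1a, a type I receptor shared with BMPs, rose from 2734 ± 154 to 3682 ± 558 (SD, n = 3 each; log2 0.42, adjusted p = 0.0156), and Smad4, the common Smad, from 2289 ± 111 to 2763 ± 139 (0.27, 0.03). Id3 and Id1, which respond to the pathway, fell from 9120 ± 1528 to 6037 ± 1272 (log2 -0.60, adjusted p = 0.0162) and from 3250 ± 293 to 2404 ± 272 (-0.44, 0.011). The Id3 groups overlapped, with knockout library 5 at 7447 and wild-type library 1 at 7436. None of Bmpr1a, Smad4, Id3 and Id1 was past the threshold with the trend removed (log2 -0.11, 0.19, -0.10 and 0.06, adjusted p from 0.0909 to 0.737), and Bmpr1a and Id1 changed sign. Smad5 was the 1 gene of the list that passed then (-0.38, adjusted p = 0.00922), or 8.33% of the list against 12.7% of all genes. Without wild-type library 4, Bmpr1a, Smad4, Id3 and Id1 did not pass either (adjusted p from 0.0555 to 0.0828). Smad4 passed only when wild-type library 3 was the library left out, and Id3 also failed without knockout library 7 (0.0538).

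Relatives of the members by gene family were sparse. Of 7 cystatins tested, the member Cst9 included, 0 rose and 2 fell, 28.6% of the family against 34.3% of all genes. By limma at an unadjusted p under 0.05, 0 were higher and 4 lower, Cst8 and Cst9 among them. At least 34.3% of all genes pass at that level, because that share passed the adjusted threshold, and no test was made of the family. The 2 called were Cst3, from 13930 ± 1389 to 9063 ± 727 (SD, n = 3 each, limma log2 -0.62, adjusted p = 0.00255), and Cstb, from 2017 ± 154 to 1457 ± 189 (-0.47, 0.00868). Their transcripts measure 860 and 603 nt, and with the trend removed both stood near 0 (log2 0.01 and -0.02). Besides Defb19, the beta-defensin Defb25 was called as lower (30.7 ± 4.72 to 16.3 ± 1.75, SD, n = 3 each; log2 -0.87, limma adjusted p = 0.046), but was past the threshold only when wild-type library 3 was the library left out. Trend removal brought it to log2 -0.24 (adjusted p = 0.58). Among the 4 cerebellins Cbln4 was the 1 called. Over all 53 tested genes of these lists that are not members, 9 rose and 7 fell, which is 30.2% called against 34.3% of all genes. With the trend removed 6 rose and 3 fell, or 17.0% against 12.7%. Ptgds, the targeted gene, is among those that fell. Erbb4, which passed the filter on low values only through the knockout libraries, is among the 9 that rose before trend removal.

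**Figure D5:**
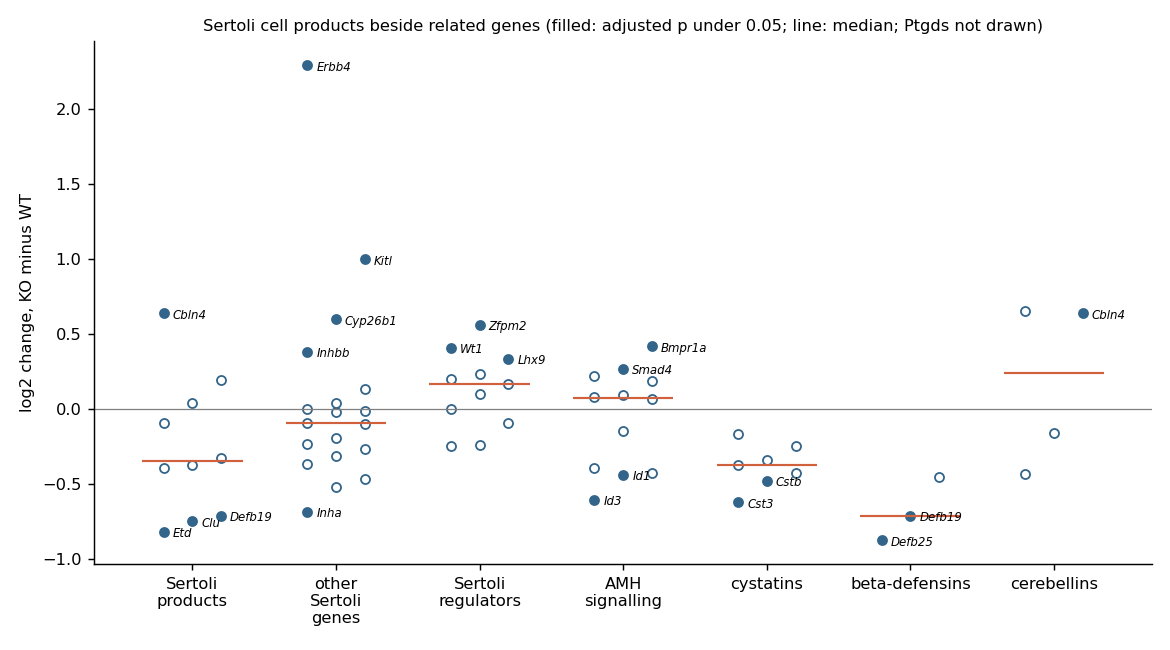
Log2 change (KO minus WT) of tested genes in each list (circles, filled where the adjusted p is under 0.05), with the median of the genes drawn as a line and Ptgds left off. The Sertoli products have 3 filled circles below 0 and 1 above, and the regulators have 3 above 0 and none below.

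By the root mean square distance between centred log2 values over the 6 libraries, the genes closest to Amh among 5873 genes with a mean of at least 1000 were Tle6, Tspan11 and Itgb5, at distances of 0.06, 0.06 and 0.07. Their log2 changes were -0.38, -0.32 and -0.32, and like Amh they did not pass the test (limma adjusted p = 0.0882, 0.151 and 0.124). Those closest to Clu were Inha, Folr1 and Pmvk, at 0.06, 0.08 and 0.09, with log2 changes of -0.68, -0.82 and -0.70 (limma adjusted p = 0.00493, 0.00346 and 0.00607). All 6 libraries enter these distances, including the difference between genotypes.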

How the data were processed

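Each library's values were taken from the table the authors deposited, whose signal is an upper-quartile normalised pseudo-count per gene; it is fractional and never negative. Per the submitters' processing notes, CASAVA 1.8.2, edgeR 2.6.2 and the build mm9 were used; which step each served, the annotation and the use of strand are not stated in the labels. Coordinates are those of the table. Testing used log2(value + 1) and limma 3.58.1 (R 4.3.3, mean-dependent prior, two-sided) for genes with at least 10 in at least 3 libraries. Fold changes on this scale understate the change of low genes. P-values set the difference between genotypes against the spread among these libraries, which the prior draws toward that of genes of similar level. Upper quartiles were 1484 or 1485, sums ran from 21657342 to 23734462, and 0 pairs of libraries were identical. The tests were tried on simulated data.

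The length and GC trend was removed per library by natural splines (4 degrees of freedom for each property) for 14449 genes (95.6%) matched to GENCODE vM21 by NCBI gene number. BLAST 2.17.0 found 0 other genes matching a member's transcript over at least 100 nt at 95% identity or more. No gene span in the table overlapped a member's span. The members, lists and tests were chosen with earlier results of these data known. Named were all members, up to 4 genes past the threshold per list by size of change, and the 3 genes most like Amh and Clu. Alternatives were other pseudocounts, filters, scalings, weights and priors, trend removal, and leaving out libraries. Figures were drawn with matplotlib 3.10.9.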

Additional observations from a re-analysis of the deposited data

How the results depend on the processing

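Pseudocounts of 0.5 and 10, no filter, a filter at 50, median-of-ratios scaling, equal totals and quantile normalisation each left 4 members called. Over all genes these settings called from 5050 (of 16862, no filter) to 5274 (of 12838, filter at 50), so the background hardly moved either. Library weights gave 6, with Amh and Cst9 added, but then 7243 of all 15116 genes were called, against 5180 without weights. Knockout library 5 had a weight of 6.05, against 0.398 to 1.24 for the other libraries. Without the mean-dependent prior 2 members were called (Clu and Defb19), with the length and GC trend removed 2, and 1 when wild-type library 1 was dropped as well. Over all 15116 genes, 4074 were called without that prior. With 1 library left out, 2 to 6 members were called. For the 53 related genes, where 16 were called, the count was 9 with the trend removed, 8 when wild-type library 1 was dropped as well, 9 with scaling to the Sertoli markers, and 9 to 18 with 1 library left out. Over all genes 5180 were called, against 1836, 1723 and 2819 under these settings, and 3032 (without wild-type library 4) to 5041 with 1 library left out. With equal totals, 3507 were higher and 1687 lower, against 2609 and 2571. The cause of these differences was not tested.

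Changes of sign were as follows. Amh went to 0.11 with the trend removed, and stood at -0.03 when wild-type library 1 was dropped as well. Aard went to 0.0093 with equal totals, 0.15 with quantile normalisation, 0.25 with the trend removed and 0.0697 when wild-type library 1 was dropped as well, and ran from -0.25 to 0.0397 with 1 library left out. Mro went to -0.10 with scaling to the Sertoli markers and ran from -0.0064 to 0.12 with 1 library left out. After trend removal from 6 libraries, and from 5 without wild-type library 1, Tesc stood at 0.31 and 0.28, Lhx9 at -0.12 and -0.14, and Bmpr1a at -0.11 and -0.13. Id1 (0.065) and Cst3 (0.0116) changed sign with the trend removed. No paired analysis was possible because the groups share no replicate number. Depth is unknown, so counting error could not be separated from the spread between libraries.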
